A study of Homo sapiens with 3 samples.

Results

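The kinesin superfamily was examined in LNCaP-abl cells after silencing of the transcription factor E2F1. Kinesins are motor proteins that split ATP to move along microtubules or to take their ends apart. Some carry vesicles, organelles and ciliary parts along microtubules in interphase, and others build the spindle, move chromosomes and close the cell at cytokinesis. In dividing cells the genes of the mitotic kinesins are transcribed mainly in G2 and M phase, many of them through promoters read by the MuvB complexes, and E2F1 is best known as an activator of genes for entry into S phase.

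Members were all genes whose symbol is KIF or KIFC followed by a digit, 34 of the 22613 genes listed. The rule names 12 of the superfamily as mitotic, of which 10 were measured (KIF11, KIF14, KIF15, KIF18A, KIF20A, KIF20B, KIF22, KIF23, KIF2C and KIF4A), while KIFC1 and KIF18B were not analysed here. The other 24 members were mostly transport, ciliary and signalling kinesins, and 1 of them, KIF9-AS1, is an antisense RNA gene and not a kinesin. This class is mixed, since KIF2A and KIF24 also act at spindle poles and centrioles and KIF4B is a copy of KIF4A. The mitotic genes are grouped by what they are known to do, and the grouping uses no measured value.

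LNCaP-abl cells derive from the prostate cancer line LNCaP and grow without androgen, here in RPMI medium without phenol red and with charcoal-stripped serum. Cells received by lipid transfection either pooled siRNAs that target E2F1 (siE2F1, 1 library) or control siRNA (2 libraries, control 0 and control 1), and RNA was extracted 72 h later. The siE2F1 values therefore have no replicate, and no label tells if the controls were separate cultures, so p-values measure only the spread between the controls, which may be technical. Levels are given as FPKM, fragments scaled to transcript length and library size, and the depth of each library is unknown. The libraries also share nearly the same distribution of values, with a median log2 value of 1.58 in siE2F1, control 0 and control 1. Some values recur exactly between libraries, such as 338.9 FPKM for FOLH1 in siE2F1 and control 1. The values thus appear to have been matched between libraries, beyond scaling to library size. All levels, sums and shares below are of such values.

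E2F1 itself was at 1.68 FPKM in siE2F1, against 10.6 and 10.6 FPKM in control 0 and control 1 (log2 fold change -2.12, SE 0.0605, limma adjusted p = 0.0311). Fold changes throughout are differences of log2(FPKM + 1), a scale that shrinks the changes of weakly expressed genes, and a gene was tested if its mean over the 3 libraries reached 1 FPKM. The 8 prostate luminal markers were all measured, with a summed level of 929 FPKM in siE2F1 and of 854 and 873 FPKM in the controls. Of 5 markers in each further list, 2 leukocyte, 3 neuronal and 2 fibroblast markers had values. Among these, LYZ alone of the leukocyte and NCAM1 alone of the neuronal markers had a mean of at least 1 FPKM, and no fibroblast marker did. The markers without values cannot be judged.

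Every measured mitotic kinesin had a lower level in siE2F1 than in either control. Their median log2 fold change was -0.51, with values between -1.21 and -0.33, and their levels in siE2F1 were 32.9% to 73.7% of the control mean. Summed over the 10 genes, the level was 89.6 FPKM in siE2F1, against 139 and 133 FPKM in control 0 and control 1. The other 24 members summed to 243.7 FPKM in siE2F1, against 243.9 and 236.7 FPKM in the controls. The mitotic kinesins thus made up 26.9% of all kinesin FPKM in siE2F1, and 36.3% and 36.0% in the controls. Without KIF22, the most abundant mitotic kinesin, the mitotic sum was 59.0 FPKM in siE2F1, against 94.5 and 91.5 FPKM in the controls. In whole-culture RNA, fewer cells in G2 and M phase and less of these RNAs per cell cannot be told apart.

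**Figure D1:**
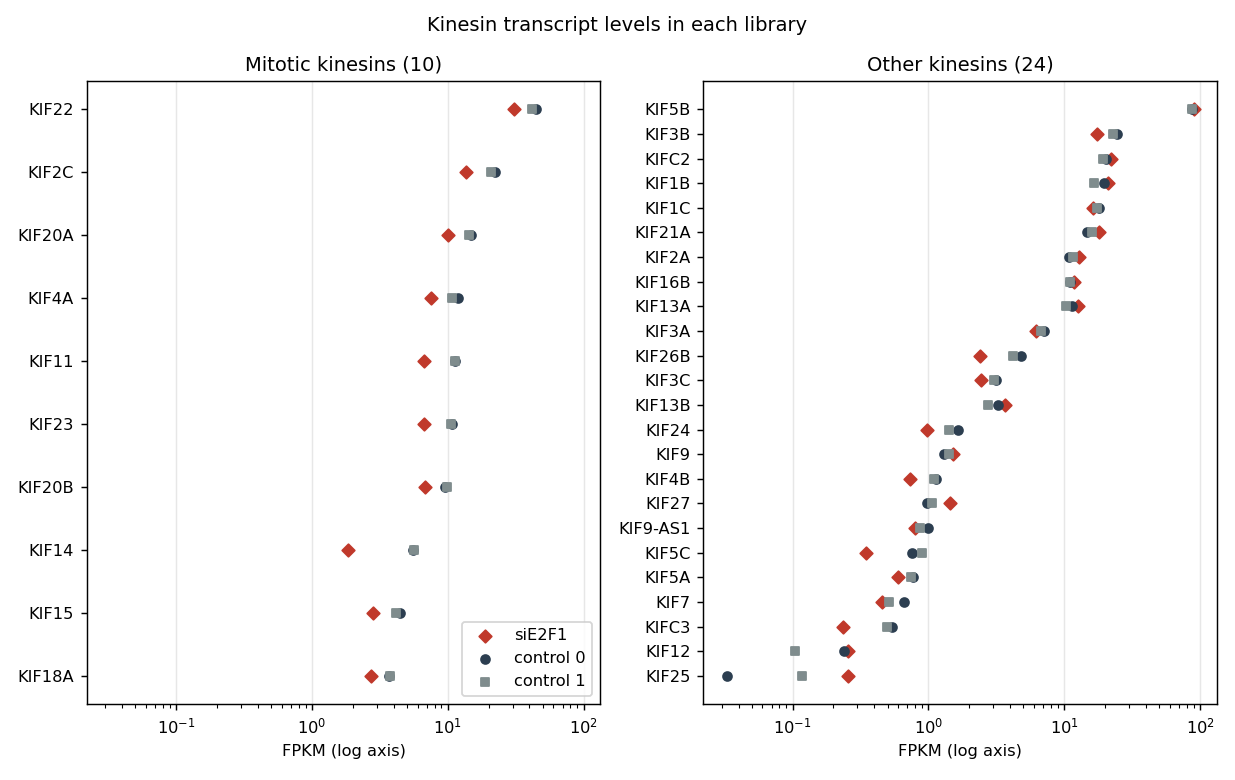
FPKM of each kinesin (log axis) in siE2F1 (red diamonds), control 0 (dark circles) and control 1 (grey squares), with the 10 mitotic kinesins on the left and the 24 other members on the right, ordered by control mean. Each mitotic kinesin's red diamond lies left of both controls, whereas KIF5B, the most abundant member, is at 89.5 FPKM in siE2F1 and at 86.6 and 86.7 FPKM in the controls.

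All 10 mitotic kinesins lay below both controls, where 39.7% of the 14401 genes tested did and where the median log2 fold change of all genes tested was 0.01. The controls differed by 0.003 to 0.13 log2 units for these genes, and siE2F1 lay beyond the nearer control by at least 3.54 times that gap. For the other kinesins tested, on either side, this ratio ran from 0.492 to 27.7. The highest was that of KIF5B, whose log2 fold change was only 0.05. The ratio depends on how close the 2 controls fell, and it was not computed over all genes. In limma over all genes tested, none of the 10 passed at an adjusted p of 0.05 (adjusted p between 0.0945 and 0.131), where 0.104% of genes were called lower. That fit calls few changes of this size: 120 genes tested lay at least 1 log2 unit below both controls and 15 were called lower, and in simulated data it missed nearly all 2-fold changes. The simulated spreads were drawn from all genes together, small RNA genes included, so the miss rate for genes like these may differ. Not passing the fit over all genes still says little about whether these genes differed. All 10 had an unadjusted p under 0.05 on the lower side, against 14.9% of all genes tested. Small nucleolar, small nuclear and micro RNA genes differ far more between the controls (median gap 0.904 log2 units over 473 genes) than the 13928 other genes tested (0.0820 log2 units), and the prior degrees of freedom that limma draws from all genes were 1.69 with them and 3.19 without them. When these small RNA genes were left out, 8 of the 10 passed (limma, adjusted p between 0.0229 and 0.0463), all lower, where 6.36% of genes were called lower. KIF15 (adjusted p = 0.0512) and KIF18A (adjusted p = 0.0809) did not pass in that fit. The word fell is used here of genes that passed in the fit without small RNA genes, and it describes the 1 siE2F1 library. None of the 10 passed under the other settings with a test. The fit without small RNA genes was chosen with its larger number of calls known. In simulated data that fit recovered most 2-fold changes but made somewhat more false calls than its adjusted p allows. The simulated siE2F1 library varied as the controls did, so the simulation cannot give the false call share in the real data. Changes were planted only in genes of higher level than KIF15 and KIF18A in the controls.

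**Figure D2:**
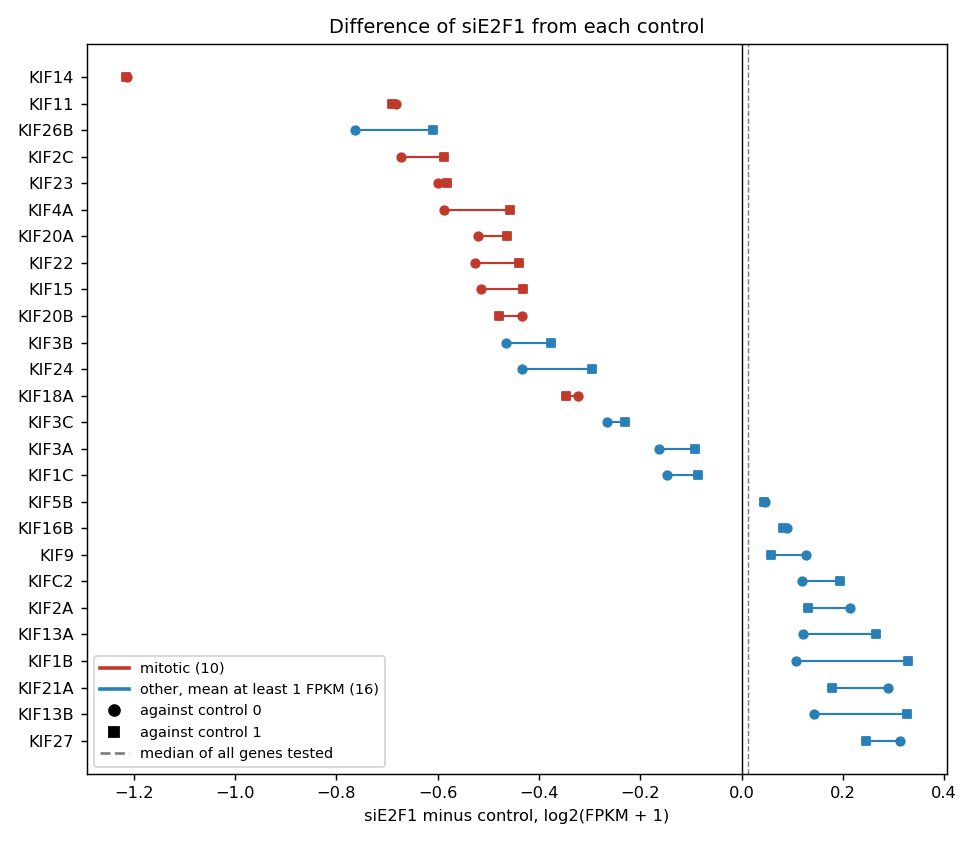
Difference of siE2F1 from control 0 (circles) and from control 1 (squares) on the log2(FPKM + 1) scale for the 26 kinesins with a mean of at least 1 FPKM, mitotic in red and other in blue, with the median of all genes tested as a dashed line. The red pairs lie between -1.22 and -0.32 and the blue pairs on both sides of 0, with KIF26B, KIF3B and KIF24 among the red ones.

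Among the kinesins of the midzone and cytokinesis, KIF14 stood furthest from the controls. KIF14, a kinesin-3 family motor that brings citron kinase to the midbody, was at 1.84 FPKM in siE2F1, against 5.59 and 5.61 FPKM in control 0 and control 1. Both controls lay within 0.003 log2 units of each other and siE2F1 was 32.9% of their mean. KIF14 fell by a log2 fold change of -1.21 with a standard error of 0.0823 (limma without small RNA genes, adjusted p = 0.0229, and 0.0945 over all genes tested). It was the 1 mitotic kinesin at least 2-fold below both controls, where 0.833% of genes tested were. With a pseudocount of 0.1 its log2 fold change was -1.55.

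The 3 kinesin-6 motors fell by similar amounts. KIF23, which forms centralspindlin with RACGAP1 and bundles microtubules at the midzone, was at 6.73 FPKM in siE2F1, against 10.7 and 10.6 FPKM in the controls. KIF20A, which carries the Aurora B kinase complex to the midzone, was at 10.1 FPKM in siE2F1, against 15.0 and 14.3 FPKM. KIF20B, a motor needed for completing cytokinesis, was at 6.81 FPKM in siE2F1, against 9.55 and 9.88 FPKM. The siE2F1 levels of these 3 genes were 63.3%, 69.1% and 70.1% of the control mean, with the controls close together in each case. Their log2 fold changes were -0.59, -0.49 and -0.46 (limma without small RNA genes, adjusted p = 0.0365, 0.0407 and 0.0436).

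KIF11 was the second furthest among the mitotic kinesins. KIF11, the kinesin-5 motor that slides the spindle poles apart, was at 6.66 FPKM in siE2F1, against 11.3 and 11.4 FPKM in the controls (log2 fold change -0.69, SE 0.0746, limma without small RNA genes, adjusted p = 0.0327). KIF15, a kinesin-12 motor that can stand in for KIF11 in keeping the spindle bipolar, was at 2.84 FPKM in siE2F1, against 4.48 and 4.18 FPKM. Both genes were below both controls, and the log2 fold change of KIF15 was -0.47 without passing the test.

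The motors that act on chromosome arms include the most abundant gene of the mitotic set. KIF22, a kinesin-10 chromokinesin that pushes chromosome arms toward the equator, was at 30.6 FPKM in siE2F1, against 44.5 and 41.8 FPKM in the controls. KIF4A, a kinesin-4 chromokinesin that sets the length of the midzone with PRC1, was at 7.60 FPKM in siE2F1, against 11.9 and 10.8 FPKM. Both fell, with log2 fold changes of -0.48 and -0.52 (limma without small RNA genes, adjusted p = 0.0435 and 0.0463). The controls of KIF4A were the furthest apart of the mitotic set, by 0.13 log2 units, and it was the closest of the 8 to the threshold.

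The 2 measured motors of microtubule ends differed in size of change. KIF2C, a kinesin-13 that depolymerises microtubules at centromeres and corrects faulty attachments, was at 13.6 FPKM in siE2F1, against 22.3 and 21.0 FPKM in the controls. It fell by a log2 fold change of -0.63 (SE 0.0814, limma without small RNA genes, adjusted p = 0.0365). KIF18A, a kinesin-8 that damps chromosome movements at the metaphase plate, was at 2.74 FPKM in siE2F1, against 3.68 and 3.75 FPKM. KIF18A was the lowest of the 10 in level in the controls and the nearest to them in siE2F1, with a log2 fold change of -0.33 that did not pass. Whether KIF2C and KIF18A differ in response was not tested.

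Promoter windows of the kinesins are shown because 10 genes of the mitotic set lay on the same side of the controls. RefSeq windows (build GRCh38.p14) of 250 bases before to 50 after each gene's start were found for all 10 measured mitotic kinesins (11 windows) and for 17 of the other members (22 windows), leaving out the antisense gene. Both strands were searched for the CCAAT box bound by NF-Y (CCAAT), for the cell cycle homology region known from genes of G2 and M phase and read by MuvB complexes (TTTGAA), and for an E2F site (TTTCCCGC, TTTGGCGC, TTTGCCGC or TTTCGCGC). Each sequence runs 5′ to 3′ along the gene's strand, and capitals mark these motifs, written as ATTGG or TTCAAA where they lie on the opposite strand. KIF14 and KIF11 are shown as the mitotic kinesins furthest from the controls, KIF15 for its E2F match, KIF4A beside its copy KIF4B, and KIF5B as the most abundant transport kinesin.
KIF14, chr1:200620702-200621001, minus strand: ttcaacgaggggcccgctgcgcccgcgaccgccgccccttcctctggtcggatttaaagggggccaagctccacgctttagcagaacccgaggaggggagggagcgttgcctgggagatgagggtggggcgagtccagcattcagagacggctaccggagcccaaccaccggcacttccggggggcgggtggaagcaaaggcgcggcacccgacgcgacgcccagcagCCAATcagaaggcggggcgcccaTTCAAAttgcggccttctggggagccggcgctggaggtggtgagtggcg
KIF11, chr10:92592880-92593179, plus strand: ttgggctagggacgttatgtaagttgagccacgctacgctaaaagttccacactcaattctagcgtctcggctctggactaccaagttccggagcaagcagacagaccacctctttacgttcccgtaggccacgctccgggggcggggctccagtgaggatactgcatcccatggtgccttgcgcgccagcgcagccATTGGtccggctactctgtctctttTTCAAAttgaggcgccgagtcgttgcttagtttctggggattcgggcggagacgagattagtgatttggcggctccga
KIF15, chr3:44761544-44761843, plus strand: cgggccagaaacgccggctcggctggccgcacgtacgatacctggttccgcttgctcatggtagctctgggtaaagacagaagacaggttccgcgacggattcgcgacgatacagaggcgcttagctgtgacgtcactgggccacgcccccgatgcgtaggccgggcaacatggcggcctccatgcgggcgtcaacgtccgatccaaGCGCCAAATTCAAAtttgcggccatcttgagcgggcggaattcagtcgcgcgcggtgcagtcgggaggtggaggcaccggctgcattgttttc
KIF4A, chrX:70289854-70290153, plus strand: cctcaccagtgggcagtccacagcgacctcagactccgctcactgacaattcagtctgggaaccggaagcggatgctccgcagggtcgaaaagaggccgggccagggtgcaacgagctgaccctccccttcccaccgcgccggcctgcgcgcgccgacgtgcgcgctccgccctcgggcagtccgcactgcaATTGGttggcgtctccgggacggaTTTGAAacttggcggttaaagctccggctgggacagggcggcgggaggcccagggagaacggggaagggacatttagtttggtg
KIF4B, chr5:155013505-155013804, plus strand: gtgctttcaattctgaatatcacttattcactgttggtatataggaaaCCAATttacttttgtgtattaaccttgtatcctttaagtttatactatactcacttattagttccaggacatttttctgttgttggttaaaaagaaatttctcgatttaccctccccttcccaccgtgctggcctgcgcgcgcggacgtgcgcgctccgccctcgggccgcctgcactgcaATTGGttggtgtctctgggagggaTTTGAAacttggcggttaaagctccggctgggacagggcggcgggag
KIF5B, chr10:32056376-32056675, minus strand: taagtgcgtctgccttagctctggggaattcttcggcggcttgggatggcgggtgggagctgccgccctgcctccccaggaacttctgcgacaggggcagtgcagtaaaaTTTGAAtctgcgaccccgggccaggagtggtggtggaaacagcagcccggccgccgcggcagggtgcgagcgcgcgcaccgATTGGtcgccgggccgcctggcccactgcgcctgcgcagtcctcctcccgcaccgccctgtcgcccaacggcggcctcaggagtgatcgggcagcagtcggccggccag

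The cell cycle homology region letters were in 7 of the 11 mitotic windows (63.6%), against 2 of the 22 windows of other kinesins (9.09%) and 15.2% of all 35116 windows. The CCAAT box was in 8 mitotic windows (72.7%), against 9 windows of other kinesins (40.9%) and 34.6% of all windows. Both together were in 6 mitotic windows (54.5%), against 2 windows of other kinesins and 5.90% of all windows. An E2F match was in 1 mitotic window (9.09%), that of KIF15, against 1 window of other kinesins (4.55%), that of KIF25, and 3.31% of all windows. In KIF15 the E2F match lay directly before the cell cycle homology region, with no base between them and no overlap.

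Spacing was alike in several genes. The CCAAT box began 25 bases before the cell cycle homology region in KIF11, 23 bases in KIF14, 24 bases in KIF4A and 24 bases in KIF4B, and 35 bases in KIF18A and 9 bases in KIF23. In KIF20B the nearest pair was 122 bases apart, and in KIF5B the order was the other way round, 81 bases apart. KIF20A and KIF22 had a CCAAT box without these cell cycle homology letters, and KIF2C had none of the 3 motifs as searched. Only the letters TTTGAA were searched for the cell cycle homology region, and only the exact words given above for an E2F site. Windows without these letters may hold another form of either site, so the lack of a match does not show that a promoter has no E2F site. A match describes letters in a window and was not tested as a binding site.

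**Figure D3:**
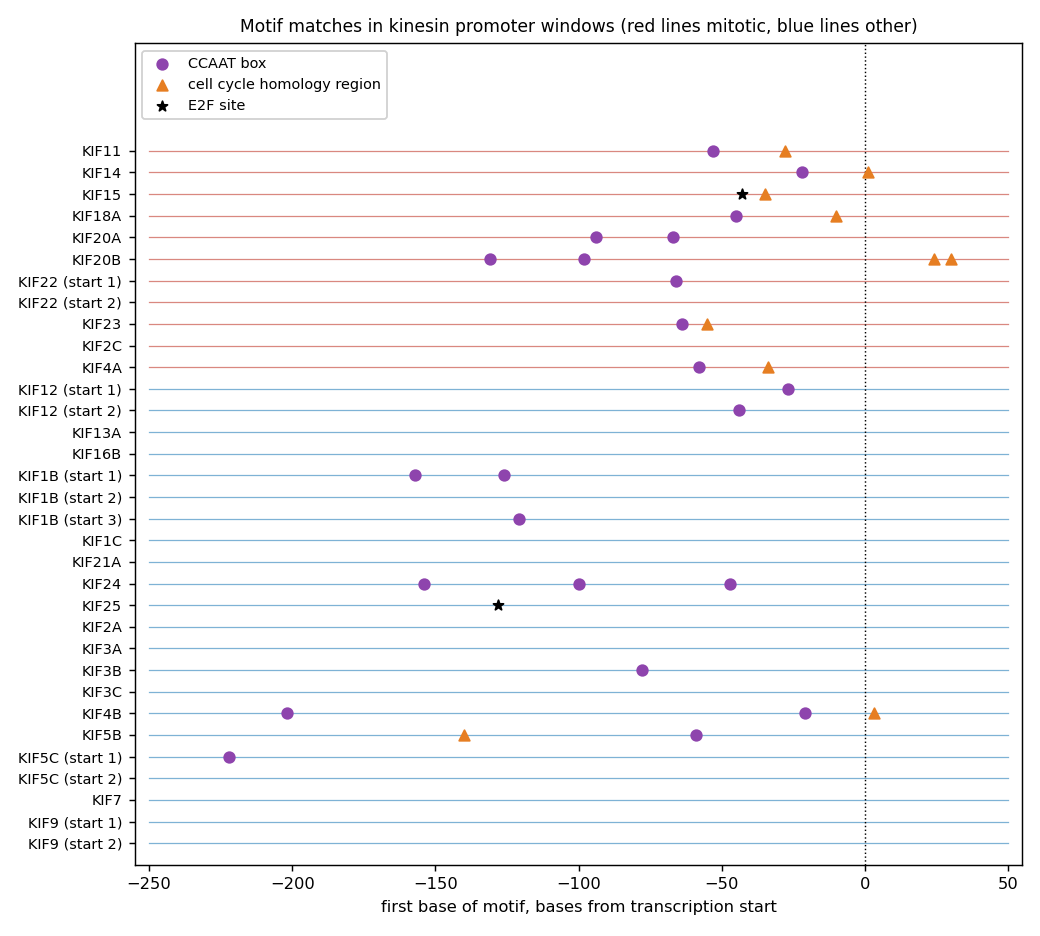
Positions of motif matches in each 300-base promoter window, as bases from the transcription start (dotted line), with CCAAT boxes as purple circles, cell cycle homology regions as orange triangles and E2F sites as black stars; genes with several starts have a line for each. Orange triangles lie on 7 of the 11 red (mitotic) lines and on the blue lines of KIF4B and KIF5B.

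KIF4B is a copy of KIF4A made from its RNA, with 1 exon in GENCODE release 29 against 31 in the longest KIF4A transcript. The transcripts aligned over 4359 bases at 95.3% identity, and 144 bases of the promoter windows aligned at 93.8% identity. KIF4B was at 0.732 FPKM in siE2F1, against 1.15 and 1.10 FPKM in control 0 and control 1, which is 65.1% of the control mean, while KIF4A was at 66.9%. Reads can be shared between such copies, so the KIF4B values are uncertain, and it was too low to test.

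The other kinesins did not lie on a single side. Of the 24, 16 had a mean of at least 1 FPKM and were tested, with a median log2 fold change of 0.09, 6 below both controls and 10 above both, against 39.7% of all genes tested below and 43.7% above. None passed in limma over all genes tested (adjusted p between 0.113 and 0.655), where 0.417% of genes were called in either direction. All 16 fold changes were smaller than 2-fold, a size that this fit seldom calls, so the lack of calls does not show that these genes were unaltered. Of the 16, 3 had an unadjusted p under 0.05, all on the lower side, where 14.9% of all genes tested did so on that side, a share near theirs. Without small RNA genes 1 of the 16 passed, KIF26B, where 10.5% of genes were called in either direction, so that the count is no higher than among all genes. For 4 of the 16, KIF9, KIF13A, KIF13B and KIF1B, siE2F1 lay beyond the nearer control by less than the gap between the controls. Of the 10 lowest fold changes among the 26 tested kinesins, 9 were of mitotic members.

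**Figure D4:**
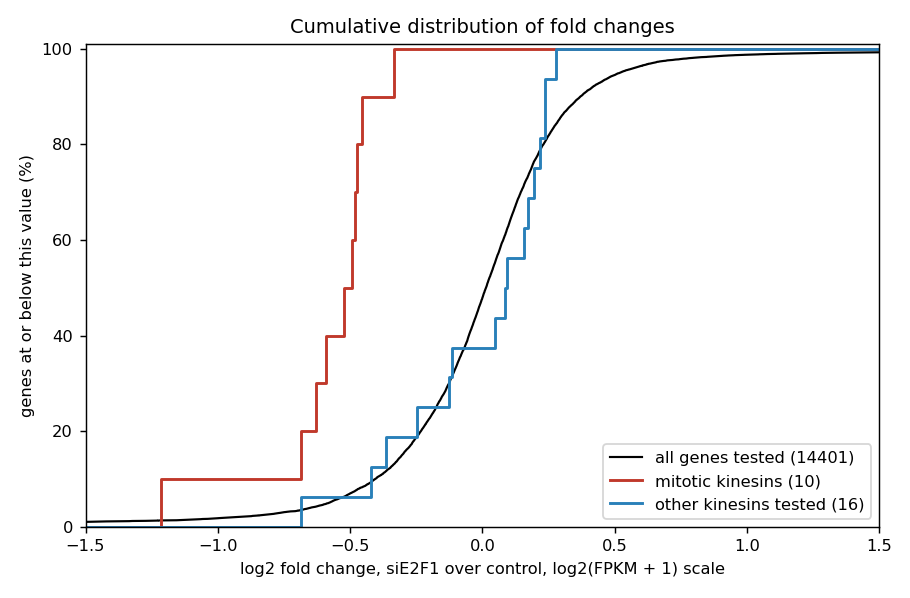
Cumulative share of genes (%) by log2 fold change of siE2F1 over control on the log2(FPKM + 1) scale for the 10 mitotic kinesins (red), the 16 other kinesins tested (blue) and all 14401 genes tested (black). The red curve reaches 100% at -0.33, whereas the blue curve spans -0.69 to 0.28, with 10 of its 16 genes above 0. The difference between the curves was not tested.

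Among the other kinesins, 3 had a lower fold change than KIF18A. KIF26B, an atypical kinesin-11 linked to Wnt5a-ROR signalling, was at 2.40 FPKM in siE2F1, against 4.77 and 4.19 FPKM in control 0 and control 1. KIF26B fell by a log2 fold change of -0.69 with a standard error of 0.106 (limma without small RNA genes, adjusted p = 0.0403, and 0.113 over all genes tested). KIF24, a kinesin-13 of the centriole that restrains the growth of cilia, was at 0.972 FPKM in siE2F1, against 1.66 and 1.42 FPKM (log2 fold change -0.36). Its controls lay 0.14 log2 units apart and it did not pass.

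The products of the kinesin-2 genes KIF3A, KIF3B and KIF3C drive transport into cilia and along microtubules as complexes with the adaptor KIFAP3. All 3 were below both controls, where 39.7% of all genes tested were. KIF17, listed with them, had no value. KIF3B, the third most abundant kinesin in the controls, was at 17.3 FPKM in siE2F1, against 24.3 and 22.8 FPKM (log2 fold change -0.42, SE 0.0750, limma adjusted p = 0.122 and 0.0529 without small RNA genes). KIF3C, best known from neurons, was at 2.43 FPKM in siE2F1, against 3.12 and 3.02 FPKM. KIF3A, the main partner of KIF3B, was at 6.23 FPKM in siE2F1, against 7.09 and 6.70 FPKM. None of these 3 genes passed, and KIF3A differed least, with siE2F1 at 90.3% of the control mean. KIFAP3 itself was on the other side, at 12.7 FPKM in siE2F1, against 9.10 and 9.86 FPKM (log2 fold change 0.38), without passing.

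Of the kinesin-1 heavy chains, which carry cargo toward the cell edge, KIF5B was the most abundant kinesin in each library. KIF5B was at 89.5 FPKM in siE2F1, against 86.6 and 86.7 FPKM in the controls (log2 fold change 0.05, SE 0.0616, limma adjusted p = 0.655). It made up 26.8% of all kinesin FPKM in siE2F1, against 22.6% and 23.4% in the controls. The neuronal forms were low: KIF5A was at 0.600 FPKM in siE2F1, against 0.769 and 0.744 FPKM, and KIF5C at 0.346 FPKM, against 0.753 and 0.890 FPKM. Both were under the level tested.

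Kinesins of vesicle transport were mostly somewhat above the controls, with no call. KIF1B, which carries mitochondria and vesicles, was at 21.1 FPKM in siE2F1, against 19.5 and 16.6 FPKM in control 0 and control 1. KIF13A, which carries endosomes, was at 12.5 FPKM in siE2F1, against 11.5 and 10.3 FPKM, and its relative KIF13B was at 3.67 FPKM, against 3.23 and 2.72 FPKM. In each of these 3 genes control 0 was the higher control and lay nearer to siE2F1. KIF1C, a vesicle motor of the same kinesin-3 family, was at 16.3 FPKM in siE2F1, against 18.1 and 17.3 FPKM, and KIF16B, a motor of early endosomes, had a log2 fold change of 0.09.

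The kinesin-4 genes outside the mitotic set were above both controls where tested. KIF21A, which slows microtubule growth, was at 18.2 FPKM in siE2F1, against 14.7 and 15.9 FPKM in the controls (log2 fold change 0.23). KIF27, known from motile cilia in mice, was at 1.44 FPKM in siE2F1, against 0.968 and 1.06 FPKM (log2 fold change 0.28, the highest of the superfamily, limma adjusted p = 0.204). KIF2A, a kinesin-13 that depolymerises microtubules at spindle poles, was at 12.8 FPKM in siE2F1, against 10.9 and 11.6 FPKM, and the kinesin-14 KIFC2 at 22.02 FPKM, against 20.2 and 19.1 FPKM. None of these 4 genes passed. KIF2A and KIF2C, both kinesin-13 depolymerases, lay on opposite sides of the controls, a difference that was not tested. KIF9 had a log2 fold change of 0.09.

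The 8 members under a mean of 1 FPKM, KIF4B, KIF5A, KIF5C, KIF7, KIF9-AS1, KIF12, KIF25 and KIFC3, ranged from 0.0327 to 1.15 FPKM over the 3 libraries. Of these, KIF12 and KIF25 lay above both controls and the other 6 below both. Counting these low genes and the antisense gene KIF9-AS1, 12 of the 24 other members were below both controls and 12 above. No share over all genes that includes such low levels was computed, so these counts are not read as a result.

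The order of levels changed around the mitotic members. KIF5B and KIF22 were the most abundant 2 kinesins in siE2F1 and in the control mean alike. KIF2C ranked 8 among the 34 members in siE2F1 and 4 in the control mean, KIF11 ranked 16 and 11, and KIF14 ranked 23 and 18. KIF4A (11.4 FPKM ± 0.783, SD, n = 2) and KIF11 (11.3 FPKM ± 0.0559, SD, n = 2), neighbours in the controls, did not differ beyond the spread of KIF4A there.

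Genes that work with the mitotic kinesins were mostly lower as well. Of 10 such partners, all tested, 9 were below both controls, against 39.7% of all genes tested, and their median log2 fold change was -0.54. This list was drawn up when several of these genes were already known to be lower in these data. Its counts are therefore a description and no independent support. Without small RNA genes 7 passed, all lower, where 6.36% of genes were called lower. None passed over all genes tested, where 8 had an unadjusted p under 0.05 on the lower side, against 14.9% of all genes. ECT2, which activates RhoA for the cleavage furrow downstream of KIF23 and RACGAP1, was at 13.2 FPKM in siE2F1, against 27.8 and 29.4 FPKM in control 0 and control 1. PLK1, the kinase that KIF20A helps to place at the midzone, was at 18.6 FPKM in siE2F1, against 37.8 and 32.9 FPKM, and AURKB, the kinase that KIF20A moves, at 13.1 FPKM, against 23.6 and 23.1 FPKM. These 3 genes fell, with log2 fold changes of -1.06, -0.89 and -0.79. RACGAP1, the partner of KIF23, had a log2 fold change of -0.48, and PRC1, the partner of KIF4A, of -0.58. MAPRE1, a general plus-end binding protein, was at 53.3 FPKM in siE2F1, between the controls at 54.4 and 52.8 FPKM.

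The kinesin motors that carry other symbols are CENPE and STARD9. CENPE, a kinesin-7 that moves chromosomes along spindle microtubules, was at 9.15 FPKM in siE2F1, against 10.6 and 10.7 FPKM (log2 fold change -0.20, limma adjusted p = 0.177, and 0.152 without small RNA genes). CENPE was thus below both controls, but nearer to them than any of the 10 mitotic KIF genes. STARD9 was at 0.383 FPKM in siE2F1, against 0.517 and 0.456 FPKM.

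Cargo adaptors and the opposite motor did not lie on a single side. Of 10 adaptors, 4 were below both controls and 6 above (median log2 fold change 0.04), against 39.7% and 43.7% of all genes tested. Without small RNA genes 1 of the 10 passed, lower, where 6.36% of genes were called lower and 10.5% in either direction. This count is no result about adaptors as a set. The gene that passed was KIAA1279, the kinesin-binding protein KBP, which stands in this list but is not a cargo adaptor in the strict sense. KIAA1279 was at 18.4 FPKM in siE2F1, against 29.7 and 27.8 FPKM in the controls (log2 fold change -0.62, limma without small RNA genes, adjusted p = 0.0366). KLC4, a kinesin-1 light chain, was at 10.8 FPKM in siE2F1, against 8.11 and 8.13 FPKM, without passing.

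Cytoplasmic dynein and dynactin, which move cargo the other way, had 12 of 22 genes below both controls and 7 above (median log2 fold change -0.06), against 39.7% and 43.7% of all genes tested. Without small RNA genes 2 of the 22 passed, both lower, where 6.36% of genes were called lower and 10.5% in either direction. So few calls are no result about these genes as a set. PAFAH1B1, the dynein regulator LIS1, was at 19.9 FPKM in siE2F1, against 32.4 and 30.7 FPKM, and DYNC1I2, an intermediate chain, at 16.4 FPKM, against 23.6 and 25.5 FPKM. DYNC1H1, the dynein heavy chain, was at 52.9 FPKM in siE2F1, against 43.7 and 30.7 FPKM, with controls that lay far apart and no call. Over all genes tested no adaptor and no dynein or dynactin gene passed limma, and 5 and 4 had an unadjusted p under 0.05, where 28.4% of all genes tested did. The 4 dynein and dynactin genes were all on the lower side, where 14.9% of all genes tested were.

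**Figure D5:**
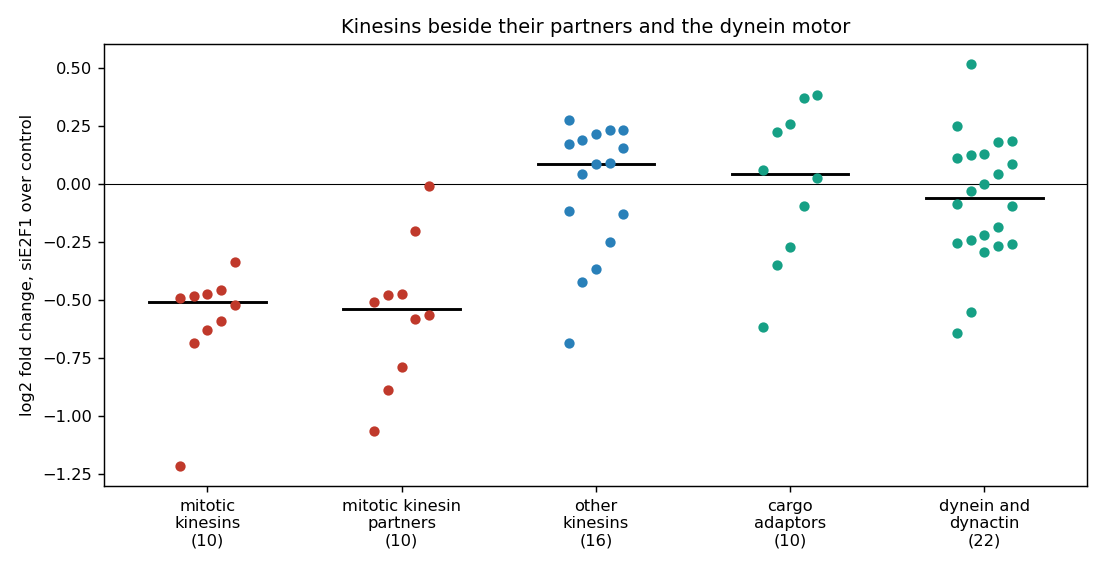
Log2 fold change of siE2F1 over control for the 10 mitotic kinesins, their 10 partners, the 16 other kinesins tested, 10 cargo adaptors and 22 dynein and dynactin genes, a point per gene, with a black line at each median. The medians are -0.51 for mitotic kinesins and -0.54 for their partners, and 0.09, 0.04 and -0.06 for the other 3 sets. Several partners were known to be lower when their list was chosen.

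Exons of some members overlap those of genes on the opposite strand in GENCODE release 29, and the library kit does not mark strand. The longest overlap of an exon pair was 132 bases for KIF20A with BRD8, 77 bases for KIF4A with PDZD11, 61 bases for KIF18A with METTL15, 143 bases for KIF24 with UBAP1, 301 bases for KIF9 with KIF9-AS1 and 791 bases for KIFC2 with FOXH1. Reads in these stretches cannot be assigned to a strand, and their part in the values was not tested. The other mitotic kinesins, KIF11, KIF14, KIF15, KIF20B, KIF22, KIF23 and KIF2C, had no such overlap with a listed gene.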

How the data were processed

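Per the labels' protocols, a TruSeq RNA v2 kit was used. Alignment and quantification tools listed in the submitters' processing notes are Cufflinks 2.0.2 and TopHat2 2.0.4, with build hg19. The sources used here do not give the annotation. The authors deposited log2 FPKM, with a minimum of log2 of 0.1. FPKM was computed as 2 to the deposited value minus 0.1, which assumes that 0.1 was added. Sorted deposited values differ by at most 0.0653 log2 units between libraries, and the library medians are identical. The values thus appear matched to a common distribution, so shifts common to most genes would be hidden. Read counts were not used, and depth is unknown.

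Values were analysed as log2(FPKM + 1). Differences between siE2F1 and control were tested two-sided over 14401 genes (mean of 1 FPKM or more) in R 4.3.3 with limma 3.58.1 and a mean-variance trend, and p-values were adjusted by Benjamini-Hochberg at 0.05. Only the controls give the spread, and the siE2F1 library is assumed to vary alike. The fit without 473 small RNA genes (symbols that begin SNOR, MIR, SCARNA or RNU, except host genes) left 13928 genes. Tested on simulated data, the fit over all genes missed nearly all 2-fold changes, and the fit without small RNA genes recovered most of them with a false call share somewhat above 0.05. All simulated libraries were drawn with the spread fitted from the controls, so a siE2F1 library that varies more was not simulated. For the fit over all genes, that spread was pooled over small RNA genes and other genes alike. Transcripts and promoters of KIF4A and KIF4B were aligned with blastn 2.17.0.

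The members, lists and settings were chosen with earlier results of these data known, including the larger number of calls without small RNA genes and that mitotic genes, several of the partners here among them, were lower. The rule for named genes takes all mitotic kinesins, the 10 other kinesins with the largest change, the 5 most abundant, kinesin-1 and the 3 genes per related list with the largest change. KIF3A, KIF4B, KIF9, KIF16B, RACGAP1, PRC1 and MAPRE1 were given values after these had been seen. Settings varied were the pseudocount, the filter, the scaling, the trend, small RNA genes and each control left out.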

Additional observations from a re-analysis of the deposited data

How the results depend on the processing

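The direction of each of the 10 mitotic kinesins and of the 16 other kinesins tested was the same under every setting that tested it. The count of mitotic kinesins called lower was 8 without small RNA genes and 0 under the other settings with a test, and that of other kinesins called was 1 and 0. For all genes the count called was 1467 without small RNA genes, 18 with a pseudocount of 0.1 and 0 with no filter, against 60. E2F1 lost its call with a pseudocount of 0.1 (-2.59) and with no filter (-2.12). The mitotic median was -0.58 with a pseudocount of 0.1, and -0.56 to -0.47 with a control left out; values with a control left out have no test. At a mean of at least 5 FPKM, KIF14, KIF15 and KIF18A were not tested, so that 0 mitotic kinesins were 2-fold below both controls, and 3 other kinesins were below both. With no filter the other kinesins had 12 members below both controls and a median of -0.029. A common median moved no library. No paired analysis was possible because there is 1 siE2F1 library, whose number is only a name. With 1 siE2F1 library and unknown depth, no counting interval can be given.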
